A study of Mus musculus with 2 samples.

Results

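The immediate early genes described here are 10 transcription factor genes of mouse mammary epithelial cells (MECs) on lactation day 3: the FOS family genes *Fos*, *Fosb*, *Fosl1* and *Fosl2*, the JUN family genes *Jun*, *Junb* and *Jund*, and *Atf3*, *Egr1* and *Myc*. They were matched by gene symbol, with no threshold on their values, and all 10 were among the 25810 genes with a symbol in the deposited files. The study compared wild-type (WT) mice with *Igfbp7*-/- mice, in which the first coding exon of *Igfbp7* was removed in every cell, so the loss was not limited to the mammary gland. Each genotype gave 1 poly(A) RNA library, made from inguinal gland cells depleted of blood and vessel cells by antibodies and magnetic beads. Neither the labels nor the methods state how many animals went into a library. The labels give the background of both groups as C57BL/6, whereas the methods name CD1, and the labels list CD35 among the depleted markers where the methods list CD31. With 1 library per genotype, no difference between genotypes could be tested, and the intervals below cover counting error only.

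Immediate early genes are transcribed within minutes of a signal such as a growth factor, a cytokine or cell stress, without new protein synthesis. FOS proteins pair with JUN proteins through a leucine zipper to form AP-1, which binds a short palindromic DNA site, whereas JUN proteins can also pair with each other or with ATF proteins. In the mammary gland, AP-1 activity is known to be induced early in involution, the regression of the gland that follows weaning. The same genes are also known to be induced when a tissue is digested into single cells, and the glands of both genotypes were made into single-cell suspensions before RNA was taken.

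Read counts were scaled by the authors to the number of mapped reads (RPM), and RPM was divided by gene length to give RPKM. The number of mapped reads behind RPM was derived here, as the median of count divided by RPM over genes with many reads. It came to 34327854 for the WT library and 35016847 for the *Igfbp7*-/- library, of which 82.4% and 72.3% fell on the listed genes. The detection limit, set here at 3 reads, equalled 0.0874 RPM for WT and 0.0857 RPM for *Igfbp7*-/-. The deleted gene followed the labels, since *Igfbp7* was measured at 152.2 RPM in WT (5224 reads) and at 1.06 RPM in *Igfbp7*-/- (37 reads). Milk protein, myoepithelial, leukocyte, endothelial and fibroblast transcripts were also lower in the *Igfbp7*-/- library, and their values stand beside the results further on.

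The 10 genes together took 92103 reads in WT and 151128 reads in *Igfbp7*-/-, which was 0.326% and 0.597% of the reads on listed genes. Of the 10 genes, 9 had a higher RPM in *Igfbp7*-/- than in WT MECs, and *Fosl1* had a lower one. A gene was counted as higher or lower at a ratio of at least 1.5 in RPM after 0.1 RPM was added to both values. By this rule *Myc*, *Fosb*, *Junb* and *Egr1* were higher (4 of 10), *Fosl1* was lower (1 of 10), and the other five stayed within 1.5 times. Among all 14026 genes that reached 1 RPM in either library, 21.4% were higher and 23.0% were lower by the same rule. Among the 8201 genes that reached 10 RPM, where all 10 genes lie, the shares were 20.7% and 20.4%. The median log2 ratio of the 10 genes was 0.48, against 0.03 for all genes tested, whose quartiles were -0.52 and 0.51.

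**Figure D1:**
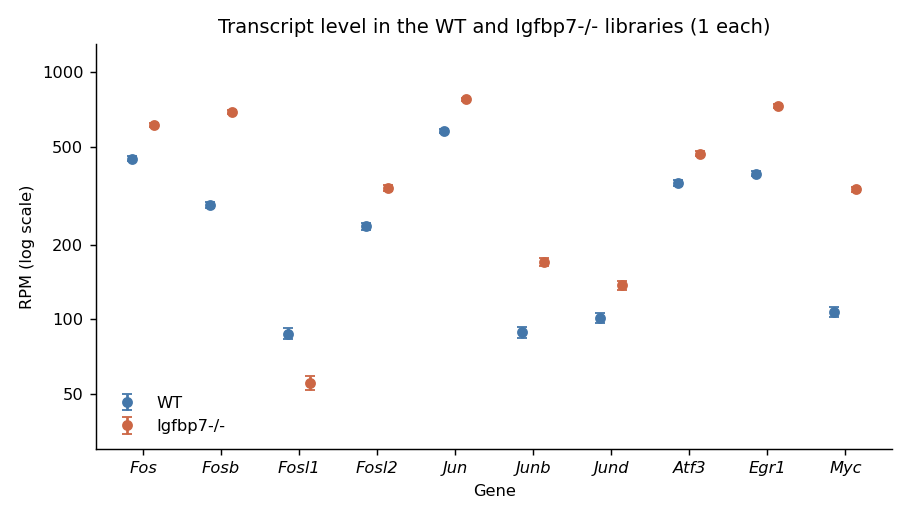
Level of each gene in RPM (log axis) in the WT library (blue) and the *Igfbp7*-/- library (orange), 1 library each. Bars are 95% exact Poisson intervals on read pairs and cover counting error only. In 9 of 10 genes the *Igfbp7*-/- point lies above the WT point, and in *Fosl1* it lies below (87.7 RPM in WT, 55.3 RPM in *Igfbp7*-/-).

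The count of higher genes depended on the scaling. When counts were divided by the reads on listed genes in place of all mapped reads, every ratio moved up by 0.19 on the log2 scale. With this scaling 8 of the 10 genes were higher and none was lower, *Atf3* being within 1.5 times at a log2 ratio of 0.58 and *Fosl1* at -0.48. The background moved as well, to 30.3% of all genes higher and 18.4% lower. The trimmed mean scaling of edgeR (TMM), which sets the bulk of genes equal, gave the same 4 higher genes and the same lower gene as the deposited RPM. Under each of these 3 scalings 5 of the 10 genes lay above the upper quartile of all ratios, and 9 lay above the median. Because of the shift of 0.19, ratios less than 0.19 below 0 turn positive when counts are scaled to listed genes, which holds for any such ratio or median given further on.

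**Figure D2:**
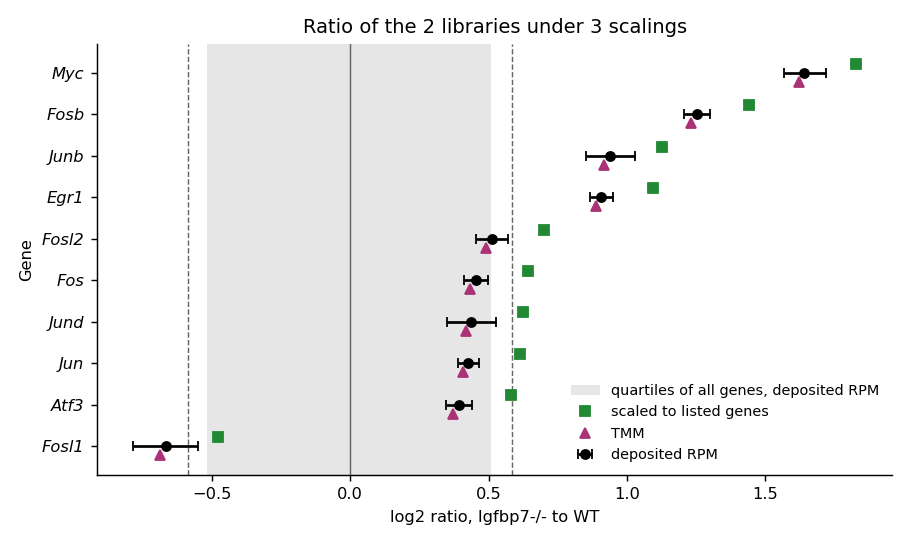
Log2 ratio of the *Igfbp7*-/- to the WT library for each gene (rows), from the deposited RPM (black, bars are 95% Clopper-Pearson intervals on read pairs), from counts scaled to listed genes (green) and from TMM scaling (purple). Dashed lines mark 1.5 times in either direction and the grey band the quartiles of all genes under the deposited RPM. *Myc*, *Fosb*, *Junb* and *Egr1* lie right of the upper line under all 3 scalings, and *Fos*, *Fosl2*, *Jun* and *Jund* lie right of it, among these scalings, only when counts are scaled to listed genes.

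FOS proteins bind DNA mainly as partners of JUN proteins. *Fos*, the founding member, was measured at 446.3 RPM in WT (15319 reads) and at 611.1 RPM in *Igfbp7*-/- (21399 reads). This made a log2 ratio of 0.45 with a 95% interval (Clopper-Pearson) of 0.41 to 0.50, within 1.5 times. *Fosb*, whose product also exists in a short spliced form that lacks part of the activation domain, was measured at 290.5 RPM in WT (9972 reads) and at 692.7 RPM in *Igfbp7*-/- (24257 reads). The log2 ratio of *Fosb* was 1.25 (1.21 to 1.30), the largest of the FOS family. In RPM, which is not divided by length, *Fosb* stood below *Fos* in WT and above it in *Igfbp7*-/-. Per length, *Fos* stood above *Fosb* in both libraries, at 211.8 and 76.8 RPKM in WT and 290.0 and 183.1 RPKM in *Igfbp7*-/-. *Fosl2*, which encodes FRA-2, stood at 238.1 RPM (8174 reads) and 339.7 RPM (11894 reads), a log2 ratio of 0.51 (0.45 to 0.57). *Fosl1*, which encodes FRA-1, was the lower gene of the family, at 87.7 RPM in WT (3011 reads) and 55.3 RPM in *Igfbp7*-/- (1935 reads). Its log2 ratio was -0.67 (-0.78 to -0.55), so the interval reached a ratio smaller than 1.5 times. The interval of *Fosl1* did not overlap that of any other of the 10 genes.

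JUN proteins are the usual partners of FOS proteins and can also bind DNA as JUN pairs. *Jun* had the highest RPM of the 10 genes in both libraries, at 577.3 RPM in WT (19818 reads) and at 775.9 RPM in *Igfbp7*-/- (27170 reads). Its log2 ratio was 0.43 (0.39 to 0.46). Per length, *Fos* stood above *Jun* in both libraries. *Junb*, a weaker activator that can hold back *Jun* activity, was measured at 88.7 RPM in WT (3046 reads) and at 170.2 RPM in *Igfbp7*-/- (5961 reads). With a log2 ratio of 0.94 (0.85 to 1.03), *Junb* was the member of the JUN family that passed 1.5 times. *Jund*, known for more constant expression than the other JUN genes, stood at 101.3 RPM (3478 reads) and 137.3 RPM (4807 reads), a log2 ratio of 0.44 (0.35 to 0.53). *Atf3*, a stress-induced factor that pairs with JUN proteins and often represses its targets, was measured at 356.4 RPM in WT (12233 reads) and at 467.8 RPM in *Igfbp7*-/- (16380 reads). Its log2 ratio of 0.39 (0.34 to 0.44) was the smallest of the 9 genes with a higher RPM in *Igfbp7*-/-.

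*Egr1*, a zinc finger factor that binds GC-rich sites, and *Myc*, a factor that pairs with MAX and drives growth and ribosome production, are not AP-1 subunits. *Egr1* was measured at 389.2 RPM in WT (13360 reads) and at 730.3 RPM in *Igfbp7*-/- (25573 reads), a log2 ratio of 0.91 (0.87 to 0.95). *Myc* was measured at 107.6 RPM in WT (3692 reads) and at 335.6 RPM in *Igfbp7*-/- (11752 reads), a log2 ratio of 1.64 (1.57 to 1.72). It had the largest ratio of the 10 genes, 3.12 times, and only 397 of the 14026 genes tested had a larger one.

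In the order of the ratios, *Myc* and *Fosb* each stood apart from the genes next to them by more than counting error. *Junb* and *Egr1* came next and their intervals overlapped. *Fosl2*, *Fos*, *Jund*, *Jun* and *Atf3* followed in a chain in which each interval overlapped the next, so that counting error did not set neighbours apart. Their ratios ran from 1.31 to 1.43 times, and between 69.3% and 75.2% of all genes tested had a smaller ratio. The corresponding shares were 97.2% for *Myc*, 94.2% for *Fosb*, 89.1% for *Junb*, 88.5% for *Egr1* and 20.9% for *Fosl1*.

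Ranks within a library also showed which genes changed places with others. *Myc* was 1260th by RPM in WT and 260th in *Igfbp7*-/-, and *Fosb* was 355th and 92nd. *Egr1* was 228th and 82nd, and *Jun* was 128th and 74th. *Fosl1* moved the other way, from 1607th to 2545th.

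Levels of different genes were compared per length, in RPKM. In WT the order ran from *Fos* at 211.8 RPKM through *Jun* at 181.1, *Atf3* at 179.9, *Egr1* at 126.7 and *Fosb* at 76.8 RPKM to *Fosl1* (51.4), *Junb* (49.1), *Myc* (44.8), *Fosl2* (40.5) and *Jund* (35.2). Neighbours in this order differed by more than counting error except *Jun* and *Atf3*, *Fosl1* and *Junb*, and *Junb* and *Myc*. In *Igfbp7*-/- the first places were again taken by *Fos* (290.0 RPKM) and *Jun* (243.5 RPKM). *Egr1* (237.7 RPKM) stood beside *Atf3* (236.1 RPKM) there, with overlapping intervals, and *Jun* and *Egr1* overlapped too. *Fosb* at 183.1 and *Myc* at 139.9 RPKM followed, then *Junb* at 94.2, *Fosl2* at 57.7, *Jund* at 47.7 and *Fosl1* at 32.4 RPKM. *Fosl1* thus moved from the sixth place in WT to the last in *Igfbp7*-/-.

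Shares within a library do not depend on its total. Summed over the FOS family, the JUN family and *Atf3*, AP-1 gene transcripts came to 825.8 RPKM in WT and 1185 RPKM in *Igfbp7*-/-. The FOS family made up 46.1% of this sum in WT and 47.5% in *Igfbp7*-/-, and the JUN family 32.1% and 32.5%. Per length, the balance between the families was thus nearly the same in both libraries. As shares of RPM, the FOS family made up 48.6% and 52.3%, and the JUN family 35.1% and 33.3%. Inside the FOS family the shares per length differed. *Fosb* made up 20.2% of FOS family transcripts in WT and 32.5% in *Igfbp7*-/-, and *Fosl1* 13.5% and 5.75%. *Fos* was the main member per length in both, with 55.7% and 51.5%. Without the division by length, as shares of RPM, *Fosb* was the main member in *Igfbp7*-/- (40.8%, against 36.0% for *Fos*), and *Fosl1* made up 8.25% in WT and 3.25% in *Igfbp7*-/-. Inside the JUN family, *Junb* made up 18.5% in WT and 24.4% in *Igfbp7*-/-, and *Jun* 68.2% and 63.2%. The RPKM ratio of *Fosb* to *Fos* was 0.363 in WT and 0.631 in *Igfbp7*-/-, a log2 difference of 0.80 (95% counting interval 0.74 to 0.86). For *Fosl1* to *Fosl2* the ratio was 1.27 in WT and 0.562 in *Igfbp7*-/-, a log2 difference of -1.18 (-1.31 to -1.05). Of 10 pairs compared, 3 kept their ratio within counting error. *Fos* to *Jun* was 1.17 and 1.19 (log2 difference 0.03, -0.03 to 0.08), *Jund* to *Jun* 0.194 and 0.196 (0.01, -0.08 to 0.11), and *Atf3* to *Jun* 0.993 and 0.970 (-0.03, -0.09 to 0.03).

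**Figure D3:**
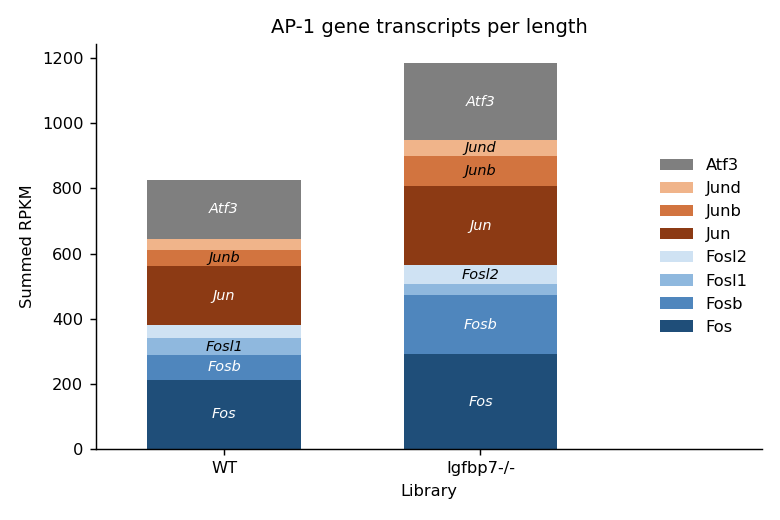
Summed RPKM of the FOS family (blues), the JUN family (browns) and *Atf3* (grey) in the WT and the *Igfbp7*-/- library, with bars starting at 0. The *Igfbp7*-/- bar is taller (1185 against 825.8 RPKM), its *Fosb* segment is thicker (183.1 against 76.8 RPKM) and its *Fosl1* segment is thinner (32.4 against 51.4 RPKM).

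Promoter windows, running from 250 bases before to 50 bases after the gene start, were taken from RefSeq on the GRCm38.p6 build for 7 of the 10 genes. *Fosl1*, *Egr1* and *Myc* had no entry. The windows of *Fos* and *Fosb* and of *Jun* and *Junb* are shown because the genes of each pair belong to one family but differed in their ratios. They lie at chr12:85473640-85473939 on the plus strand for *Fos*, chr7:19309996-19310295 on the minus strand for *Fosb*, chr4:95052173-95052472 on the minus strand for *Jun* and chr8:84978699-84978998 on the minus strand for *Junb*. Capitals mark matches to TGACG, the half-site of the cAMP response element, to TGACATCA, a variant of the AP-1 site, to GCGNGGGCG, the EGR site, and to TATAAA, each searched on both strands. Each sequence is written 5′ to 3′ on the strand of its gene.
Fos: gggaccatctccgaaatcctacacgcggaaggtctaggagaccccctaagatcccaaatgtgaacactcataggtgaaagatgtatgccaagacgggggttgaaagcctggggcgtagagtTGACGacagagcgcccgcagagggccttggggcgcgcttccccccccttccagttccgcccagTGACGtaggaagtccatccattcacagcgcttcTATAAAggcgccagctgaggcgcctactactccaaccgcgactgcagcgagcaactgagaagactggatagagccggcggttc
Fosb: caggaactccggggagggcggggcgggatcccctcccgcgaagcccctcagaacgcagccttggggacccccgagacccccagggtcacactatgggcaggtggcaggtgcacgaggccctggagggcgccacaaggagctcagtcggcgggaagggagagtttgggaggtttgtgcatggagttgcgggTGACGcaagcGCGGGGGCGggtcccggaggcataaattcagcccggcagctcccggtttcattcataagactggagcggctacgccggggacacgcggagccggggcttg
Jun: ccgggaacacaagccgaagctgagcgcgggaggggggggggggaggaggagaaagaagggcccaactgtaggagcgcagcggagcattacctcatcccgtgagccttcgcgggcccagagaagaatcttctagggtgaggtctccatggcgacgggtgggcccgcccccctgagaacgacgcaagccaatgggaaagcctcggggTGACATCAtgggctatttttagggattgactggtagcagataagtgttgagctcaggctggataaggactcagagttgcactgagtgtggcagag
Junb: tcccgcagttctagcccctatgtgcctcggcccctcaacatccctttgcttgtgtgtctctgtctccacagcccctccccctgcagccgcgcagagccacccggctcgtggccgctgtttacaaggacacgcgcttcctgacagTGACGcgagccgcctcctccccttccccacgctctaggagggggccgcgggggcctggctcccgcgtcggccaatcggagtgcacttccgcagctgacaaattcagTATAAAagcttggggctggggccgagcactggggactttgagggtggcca

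A TGACG half-site was found in 4 of the 7 windows (*Fos*, *Fosb*, *Junb* and *Atf3*), and 20.8% of all 32851 RefSeq windows hold one. In *Fos* the first bases of its matches lay 129 and 66 bases before the start, in *Fosb* 60 bases and in *Junb* 106 bases before it. In *Atf3* the match lay on the opposite strand, beginning 7 bases before the start. The *Jun* window held TGACATCA 45 bases before the start, a sequence present in 3.62% of all windows. The EGR site was found in *Fosb*, 50 bases before the start, and in *Fosl2*, 79 bases before it, and 5.55% of all windows hold one. TATAAA was found in *Fos*, 33 bases before the start, and in *Junb* at the annotated start itself, and 13.6% of windows hold it. The full cAMP response element TGACGTCA, the AP-1 site TGACTCA, the CArG box of serum response factor and the E-box CACGTG were in none of the 7 windows. They are held by 1.79%, 5.20%, 1.63% and 7.15% of all windows. Sequence outside the windows was not searched, so absence from a window does not mean that a gene lacks the site. *Fosl1*, *Egr1* and *Myc*, which had no window, were not searched at all. The half-site was added to the search after the windows had been seen, and a match is a description of letters, not of a bound site.

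In the GENCODE annotation of the NCBIM37 build (mm9, the build of the submitters' processing notes), *Fos* lies on chromosome 12 from 86814840 to 86818223, *Fosb* on chromosome 7 from 19888070 to 19895394, *Fosl1* on chromosome 19 from 5447703 to 5455945 and *Fosl2* on chromosome 5 from 32438845 to 32460204. The JUN family genes have a single exon each, *Jun* on chromosome 4 from 94715725 to 94718913, and *Junb* and *Jund* on chromosome 8 from 87500811 to 87502617 and from 73221638 to 73224515. *Atf3* lies on chromosome 1 from 192994175 to 193007219, *Myc* on chromosome 15 from 61816946 to 61821929 and *Egr1* on chromosome 18. These positions are of another build than the promoter windows and cannot be set against them. For 4 of the 10 genes, *Fosl1*, *Jun*, *Jund* and *Egr1*, exons overlap those of a gene on the opposite strand. The library kit kept the strand, but whether the counting used it is not given in the sources used here, so reads of these 4 genes could include reads of their partners. The partner of *Fosl1*, *Ccdc85b*, was listed at 20.3 RPM for WT and 14.5 RPM for *Igfbp7*-/-, and the remaining partner genes were not matched by symbol in the files.

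Other immediate early genes were described from a list of 40, of which 39 reached 1 RPM and *Egr4* did not. Of the 39, 13 (33.3%) were higher in *Igfbp7*-/- and 3 (7.69%) were lower, beside 21.4% and 23.0% of all genes. Its genes had a median log2 ratio of 0.20. Scaled to listed genes, the counts were 15 higher and 2 lower. *Klf10*, a zinc finger factor induced by TGF-beta, had the largest ratio, at 33.8 and 212.4 RPM in WT and *Igfbp7*-/- (log2 ratio 2.65, 2.52 to 2.78). *Cyr61*, a secreted matricellular protein, stood at 249.7 and 1077 RPM (2.11, 2.06 to 2.16). The other higher genes had smaller ratios. Transcription factors included *Klf6* (2172 and 4094 RPM), *Klf4* (93.1 and 154.6 RPM), *Egr2* (9.44 and 17.6 RPM) and *Csrnp1* (97.4 and 176.8 RPM). The group also held *Ier5* (62.2 and 99.8 RPM) and the clock gene *Per1* (88.1 and 178.6 RPM). Those that restrain growth or decay mRNA were *Btg2* (191.0 and 380.1 RPM), *Gadd45g* (26.4 and 48.8 RPM) and *Zfp36l2* (352.4 and 671.7 RPM). The kinase genes *Plk2* (386.4 and 711.0 RPM) and *Sgk1* (324.1 and 499.7 RPM) completed the group.

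The 3 lower genes were *Tiparp* (466.0 and 228.8 RPM, log2 ratio -1.03), *Arc* (204.5 and 114.4 RPM, -0.84) and *Npas4* (1.11 and 0.685 RPM, -0.62). *Npas4*, a neuronal factor, lay near the minimum of 1 RPM, and its interval (-1.87 to 0.43) included 0. The 23 genes within 1.5 times ran from *Nr4a2* (15.7 and 10.7 RPM, log2 ratio -0.54) to *Plk3* (46.2 and 68.5 RPM, 0.57). The most abundant of them, *Ctgf*, stood at 2879 and 2193 RPM (-0.39, -0.41 to -0.37). Several classic immediate early genes were also within 1.5 times. *Dusp1*, the phosphatase that turns off MAP kinases, stood at 434.1 and 450.6 RPM (log2 ratio 0.05, 0.01 to 0.10), *Zfp36* at 765.3 and 690.8 RPM (-0.15), *Nr4a1* at 75.7 and 81.7 RPM (0.11) and *Ier2* at 59.5 and 68.3 RPM (0.20). *Egr3*, from the family of *Egr1*, stood at 3.20 and 2.80 RPM (-0.19, -0.78 to 0.39). These genes and the others of the text that the naming rule does not cover were chosen after their values were seen.

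Of 20 further bZIP genes that reached 1 RPM, the partners and relatives of AP-1, 4 were higher and 6 were lower, shares close to those of all genes (21.4% and 23.0%), and the median log2 ratio was 0.19. Of the 6 lower genes, *Batf*, *Batf2* and *Batf3* were all under 3 RPM, and with a minimum of 10 RPM the counts were 4 higher and 3 lower. *Atf5* (19.8 and 63.2 RPM in WT and *Igfbp7*-/-) and *Atf7* (6.15 and 17.0 RPM) had the highest ratios. Among genes that reached 10 RPM, *Crem* (27.3 and 13.2 RPM) and *Jdp2*, a repressor that pairs with JUN proteins (135.1 and 80.7 RPM, log2 ratio -0.74), had the lowest ones. Of 29 genes of the MAP kinase cascade and the serum response factor complex, through which *Fos* and *Egr1* are induced, 8 (27.6%) were higher and 2 (6.90%) were lower, beside 21.4% and 23.0% of all genes, with a median of 0.14. *Srf*, serum response factor itself, stood at 42.9 and 124.5 RPM (log2 ratio 1.54, 1.42 to 1.66), and *Map2k7*, an upstream kinase of JNK, at 17.2 and 30.9 RPM. The lower genes were *Elk3* (21.0 and 6.17 RPM), a ternary complex factor also expressed in vessel cells, and *Mkl1* (72.7 and 36.5 RPM), a cofactor of *Srf*. *Mapk3*, which encodes an ERK kinase, was within 1.5 times (33.4 and 27.3 RPM, -0.29).

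Of 24 genes known as targets of AP-1 that reached 1 RPM, 3 (12.5%) were higher and 11 (45.8%) were lower in *Igfbp7*-/-, beside 21.4% and 23.0% of all genes. The other 10 stayed within 1.5 times, and the median log2 ratio was -0.49. The lowest ratios were those of the collagenase *Mmp13*, at 179.5 RPM in WT against 17.4 RPM in *Igfbp7*-/- (log2 ratio -3.36), and of the macrophage elastase *Mmp12* (246.8 and 30.2 RPM, -3.03). The other lower genes included *Il6* (260.0 and 55.9 RPM), *Itgax* (16.9 and 3.54 RPM), *Ereg* (63.2 and 15.5 RPM), *Plau* (261.3 and 97.1 RPM), *Hmox1* (988.7 and 442.1 RPM), *Cd44* (773.4 and 346.9 RPM) and *Mmp3* (702.0 and 332.6 RPM). *Itgax* is a marker of leukocytes, and *Mmp3* and *Il6* are known products of fibroblasts. The 3 higher genes, *Areg* (1.40 and 4.91 RPM), *Mmp9* (0.845 and 1.86 RPM) and *Il11* (1.57 and 2.97 RPM), were all under 5 RPM, and among genes that reached 10 RPM the highest ratios were those of *Hbegf* (82.7 and 89.6 RPM, 0.12) and *Sphk1* (104.5 and 94.9 RPM, -0.14).

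The Egr1 list, 15 genes that reached 1 RPM, had 3 higher and 4 lower members, shares close to the 21.4% and 23.0% of all genes, and a median of -0.18. The EGR corepressors were *Nab2* (4.25 and 7.97 RPM, log2 ratio 0.89, 0.49 to 1.33) and *Nab1* (119.1 and 165.1 RPM, 0.47, 0.39 to 0.55). *Nab2*, which is induced by EGR factors and limits them, was counted as higher and *Nab1* as within 1.5 times. Their intervals overlapped, and that of *Nab2* reached a ratio smaller than 1.5 times. *F3*, tissue factor, had the highest ratio (84.2 and 275.6 RPM). Of 14 partners and regulators of MYC, 3 (21.4%) were higher, the same share as among all genes, and 2 (14.3%) were lower, beside 23.0% of all genes. *Max*, the partner of MYC, stood at 43.4 and 47.1 RPM (0.12, -0.03 to 0.26). The MAX partners that oppose MYC lay in both directions, with *Mga* at 102.8 and 211.4 RPM, *Mxd4* at 16.0 and 28.7 RPM, and *Mxd1* at 78.4 and 41.9 RPM, and *Mlx* stood at 20.2 and 16.7 RPM (-0.27). Of 29 MYC target genes, 6 (20.7%) were higher and 3 (10.3%) lower, beside 21.4% and 23.0% of all genes, with a median of 0.16. The ribosome assembly genes *Ppan* (9.26 and 19.7 RPM) and *Ddx18* (10.8 and 20.8 RPM) had the highest ratios, and *Odc1*, which makes polyamines (533.9 and 202.6 RPM, -1.40), and *Ldha* (278.8 and 160.5 RPM) the lowest.

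When scaled to listed genes, the bZIP list had 7 higher and 3 lower genes, the MAP kinase list 9 and 2, the AP-1 targets 3 and 10, the Egr1 list 4 and 4, the MYC partners 5 and 2, and the MYC targets 9 and 2. Under this scaling 30.3% of all genes were higher and 18.4% were lower, so the background moved in the same direction as the bZIP list.

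**Figure D4:**
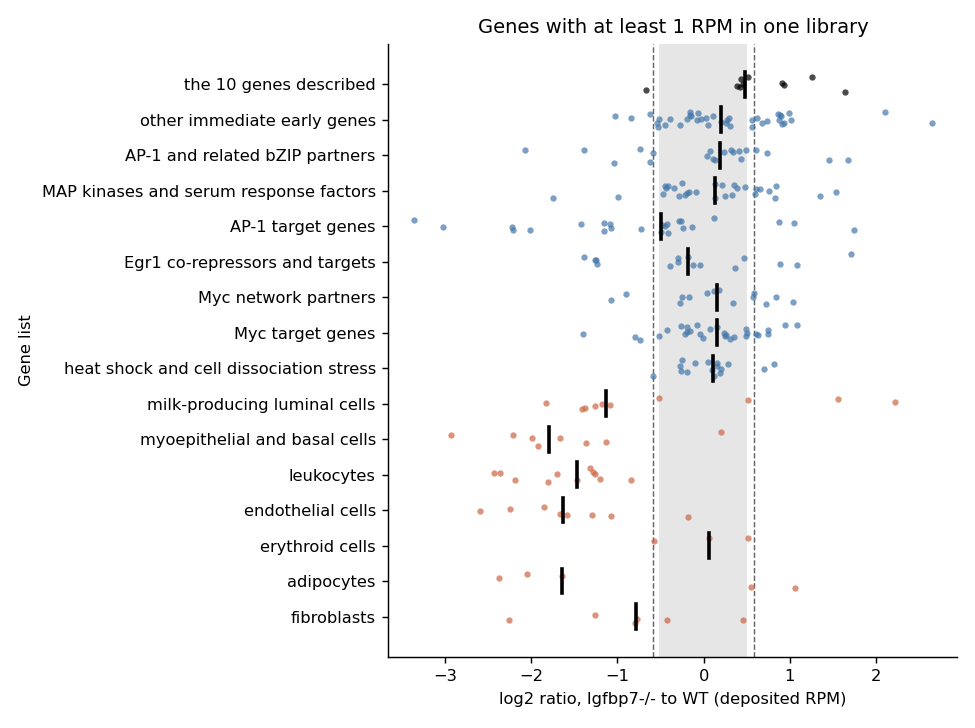
Log2 ratio of the *Igfbp7*-/- to the WT library for the 10 genes (black), the 8 lists of related genes (blue) and the 7 lists of cell type markers (orange) among genes that reached 1 RPM. Each point is a gene, black ticks are medians, dashed lines mark 1.5 times and the grey band the quartiles of all genes. The 10 genes have a median of 0.48, the AP-1 targets lie mostly left of 0, and leukocyte markers all lie left of the lower line.

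Levels of genes that respond to stress and of cell type markers are given because many of them differed between the same libraries. A list of 16 genes for heat shock and cell dissociation stress held mainly heat shock genes, but also *Hsf1* and *Hmgb2*. Heat shock genes can also be induced by tissue digestion, though not every gene of the list is known to be. Of the 16, 2 (12.5%) were higher and 1 (6.25%) was lower, beside 21.4% and 23.0% of all genes. Their median log2 ratio was 0.11, and their summed level was 11447 RPM for WT against 12769 RPM for *Igfbp7*-/-. The higher genes were *Hspa1a* (896.6 and 1580 RPM) and *Hspa1b* (1212 and 1972 RPM), near-identical copies whose reads may have been split between them. *Hspb1* (292.2 and 194.2 RPM) was the lower one, and *Dnaja1* stood at 233.4 and 192.8 RPM. The part of tissue dissociation in the levels of the immediate early genes was not tested.

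All 11 leukocyte markers were lower in *Igfbp7*-/-, with a summed level of 274.8 RPM for WT against 97.9 RPM for *Igfbp7*-/-, and none was at 0. Of 8 endothelial markers 7 were lower (sum 1307 and 416.3 RPM, median log2 ratio -1.63), and of 8 myoepithelial markers 7 were lower (3586 and 1109 RPM, -1.79). Of 6 fibroblast markers 4 were lower (9060 and 4582 RPM), and of 5 adipocyte markers that reached 1 RPM 3 were lower and 1 was higher. Of 3 erythroid markers that reached 1 RPM none passed 1.5 times, the sums of the list being 888.8 and 998.1 RPM. Among the 10 markers of milk-producing luminal cells, the 6 milk protein genes were lower, *Csn2* standing at 53087 and 19970 RPM, while the keratins *Krt8* (268.1 and 789.0 RPM) and *Krt18* (250.4 and 1174 RPM) were higher. In bulk libraries fewer cells of a type and less RNA per cell cannot be told apart. The part of these differences in the ratios of the 10 genes was not tested.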

How the data were processed

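Poly(A) RNA of lineage-depleted cells from lactation day 3 glands was sequenced as paired ends of unequal length on the SOLiD platform, 1 library per genotype. According to the methods, the authors used the Bowtie pipeline of GeneSifter and filtered mitochondrial, ribosomal and small nuclear RNA, although ribosomal RNA genes still held 2.95% (WT) and 3.15% (*Igfbp7*-/-) of the reads. The submitters' processing notes name Bowtie 0.12.3, SAMtools 0.1.15 and mm9, whereas the methods name a human build. The gene annotation and the handling of reads with several matches are not given in the sources used here. Per the file headers, the deposited values are a read count per gene, RPM (the count scaled to all mapped reads) and RPKM (RPM per kilobase of gene length). The total behind RPM exceeds the sum of the listed counts. The 50 rows without a symbol (0.0408% and 0.0484% of reads) were left out.

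Log2 ratios were computed from RPM with 0.1 RPM added, over the 14026 genes that reached 1 RPM in either library. A gene was counted as higher or lower at 1.5 times, the fold used in the study. The study also required cutoffs on sequence quality and on a P value, which were not applied here. With 1 library per genotype, edgeR's quasi-likelihood test and any other replicated test could not be run, and edgeR 4.0.16 served for TMM scaling only. Low counts were mostly even (75.8% and 74.1% of genes with 1 to 20 reads), so Clopper-Pearson and exact Poisson intervals (95%) were computed on read pairs. They cover counting error, not the variation between animals. Neighbouring genes were said to differ where their intervals did not overlap. Intervals of ratios between genes came from the counts of read pairs on the log scale.

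The 10 genes, the 15 gene lists and the pairs compared were chosen with earlier results of these data known, and lists are described by counts and medians with no test. Named from each list are the 2 genes with the highest and the 2 with the lowest ratio, given at least 10 RPM in either library, all other immediate early genes past 1.5 times at that level, and *Egr2*, *Egr3*, *Max*, *Nab1*, *Nab2*, *Srf* and *Mapk3*; not every gene that meets the rule is printed, and some are not reported here. No gene was named for a like pattern, since with 2 libraries a pattern is a single ratio. The alternatives were other pseudocounts, minimums, scalings, centring, a threshold of 2 times and shares of RPM in place of RPKM. The intervals were checked on counts simulated as whole read pairs, the same model that they assume. The data also hold odd counts, so the check cannot show how well the intervals hold for them. Python 3.11.15, numpy 2.4.6, pandas 2.3.3, scipy 1.17.1 and matplotlib 3.10.9 were used.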

Additional observations from a re-analysis of the deposited data

How the results depend on the processing

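The 4 higher and 1 lower of the 10 genes were counted alike with pseudocounts of 1 and 0.01 RPM, with RPKM, with TMM scaling, after centring on the median, without the 20 highest genes, and with no minimum or one of 10 RPM. Scaling to the reads on listed genes gave 8 higher and 0 lower, and the same without ribosomal RNA, an alternative chosen after seeing the data, gave 9 higher and 0 lower, beside 31.0% and 18.2% of all genes. These scalings raise every ratio because a smaller share of *Igfbp7*-/- reads fell on listed genes. A threshold of 2 times left 2 higher (*Myc* and *Fosb*) and 0 lower, beside 9.64% and 13.8% of all genes. For the other immediate early genes, a threshold of 2 times left 3 higher of 13 and 1 lower of 3, while the other alternatives gave 13 to 15 higher and 2 to 4 lower. Counts of the 7 remaining lists stayed within 1.5 times under 130 of 154 combinations of list, direction and alternative. None of the 10 genes changed direction under any of these alternatives. No paired analysis was possible because each genotype had 1 library, and for the same reason no replicate could be left out. Under the deposited RPM, depth limited the call of *Fosl1*, whose counting interval crossed 1.5 times. For the other genes these intervals lay on one side of that line. Intervals were not computed for the other scalings. Scaled to listed genes, *Jun* (log2 ratio 0.61), *Jund* (0.63) and *Atf3* (0.58) lay close to the line, so counting error may also limit their calls there.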
